A study of Mus musculus with 4 samples.

Results

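Foxp3, Il2ra, Ikzf2, Il10, Ccr8, Tnfrsf4, Tnfrsf9, Tnfrsf18, Izumo1r and Icos are 10 genes that regulatory T cells use to hold their identity, to find their place in tissue and to receive co-stimulation. They were taken by symbol from the 31053 genes of the count matrices, and all 10 had UMIs in T cells. Their levels are described across regulatory T-like, conventional CD4 T-like, CD8 T-like and NK-like cells. The data are 5′ single-cell RNA counts from tumours of mice bearing B16F10, a mouse melanoma line that checkpoint antibodies do not control in this model. There were 4 libraries, 1 per group. D+F+P tumours received doxorubicin (an anthracycline that kills cells in an immunogenic way), fasudil (an inhibitor of the kinase ROCK, given to increase phagocytosis) and an antibody that blocks PD-1. D+F tumours received doxorubicin and fasudil, aPD-1 tumours received the antibody alone, and the treatment of the control tumours, the mouse strain and age, and the number of mice behind a library are not given in the labels. Every group carried the same tumour line. With 1 library a group, no difference between groups had a replicate check and no test was made.

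Regulatory T cells are CD4 T cells that restrain other lymphocytes, and Foxp3 is the transcription factor that defines them. Ikzf2 (Helios) is a second transcription factor of this lineage, Il2ra (CD25) is the alpha chain that gives the IL-2 receptor its high affinity, and Il10 is an inhibitory cytokine. Tnfrsf4 (OX40), Tnfrsf9 (4-1BB) and Tnfrsf18 (GITR) are TNF receptors that bind TRAF adaptors and feed NF-kB, and Icos is a CD28-like receptor. In tumours, regulatory T cells are known to carry these receptors at high levels, together with the chemokine receptor Ccr8 and the folate receptor family protein Izumo1r, also named FR4. Activated CD8 T cells and NK cells also induce Tnfrsf9, Tnfrsf4 and Tnfrsf18, so the receptors by themselves do not mark regulatory T cells.

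The genes lie on 5 chromosomes of GRCm38/mm10, the build of the counts. Foxp3 spans chrX:7573644-7595245 (+), Il2ra chr2:11642807-11693193 (+), and Ikzf2 chr1:69531214-69687245 (-). Il10 spans chr1:131019845-131024974 (+), Icos chr1:60977927-61000320 (+), Ccr8 chr9:120092114-120094906 (+) and Izumo1r chr9:14885814-14903949 (-). The 3 TNF receptors share chromosome 4, with Tnfrsf9 at chr4:150914562-150946102 (+), Tnfrsf4 at chr4:156013843-156016612 (+) and Tnfrsf18 at chr4:156026164-156028895 (+). Tnfrsf4 and Tnfrsf18 are neighbours on the same strand with 9551 bases between them. Annotated genes overlap Foxp3 (Ppp1r3f, Flicr and Ccdc22), Ikzf2 (Gm29114), Tnfrsf9 (Camta1) and Tnfrsf18 (Gm16008). The strand used in counting is not given in the sources used here, so reads shared with these overlapping genes cannot be told apart.

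The promoters of the lineage factor and of 3 inducible receptors are shown because the genes' levels are compared below between classes that differ in activation. Each is the 250 bases before a RefSeq transcription start (GRCm38.p6, + strand, 5′ to 3′), with capitals for the letters of 4 motifs searched on both strands. The motifs were the NF-kB consensus, NFAT (GGAAA), AP-1 (TGANTCA) and STAT (TTCNNNGAA). The windows are chrX:7580233-7580482 for the second Foxp3 start, chr2:11642542-11642791 for Il2ra, chr4:156013445-156013694 for Tnfrsf4 and chr4:150927749-150927998 for the second Tnfrsf9 start.
Foxp3: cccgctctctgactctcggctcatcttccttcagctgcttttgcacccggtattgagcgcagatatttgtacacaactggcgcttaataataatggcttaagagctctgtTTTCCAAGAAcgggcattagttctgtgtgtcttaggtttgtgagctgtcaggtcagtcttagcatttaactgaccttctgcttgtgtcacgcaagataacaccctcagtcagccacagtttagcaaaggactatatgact
Il2ra: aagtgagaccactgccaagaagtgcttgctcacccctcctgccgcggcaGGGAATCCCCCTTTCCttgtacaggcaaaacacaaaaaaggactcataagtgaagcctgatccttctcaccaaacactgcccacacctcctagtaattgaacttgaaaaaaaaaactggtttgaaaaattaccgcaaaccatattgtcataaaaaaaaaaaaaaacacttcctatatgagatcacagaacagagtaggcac
Tnfrsf4: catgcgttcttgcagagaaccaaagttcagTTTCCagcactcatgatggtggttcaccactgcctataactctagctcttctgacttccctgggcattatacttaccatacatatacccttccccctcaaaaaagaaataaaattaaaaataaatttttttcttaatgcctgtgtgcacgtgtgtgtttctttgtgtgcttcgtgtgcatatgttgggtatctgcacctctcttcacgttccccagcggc
Tnfrsf9: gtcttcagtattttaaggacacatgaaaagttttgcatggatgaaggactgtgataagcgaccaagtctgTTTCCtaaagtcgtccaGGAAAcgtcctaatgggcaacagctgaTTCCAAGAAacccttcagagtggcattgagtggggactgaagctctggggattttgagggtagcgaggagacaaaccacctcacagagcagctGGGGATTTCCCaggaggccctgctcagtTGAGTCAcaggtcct
Foxp3 held 1 NFAT match at position -140 and 1 STAT match at -139 from the start, which overlap. Il2ra held an NFAT match at -190 beside overlapping NF-kB matches at -201 and -200, and Tnfrsf4 held 1 NFAT match at -220. Tnfrsf9 held the most, with overlapping NF-kB matches at -43 and -42, NFAT matches at -180, -163 and -38 (the last within the NF-kB letters), a STAT match at -136 and the single AP-1 match of the set at -15. RefSeq entries were found for 7 of the 10 genes (9 starts). Foxp3 and Tnfrsf9 had 2 starts each, and the window printed is the one with more matches. The first Foxp3 start and Izumo1r held 1 NFAT match each, the first Tnfrsf9 start held 2, Tnfrsf18 held 2 and a STAT match, and Ccr8 held none. The 7 windows other than those of Il2ra and the second Tnfrsf9 start held no match to the NF-kB consensus. Over 32851 promoters of the same length, 7.25% held the NF-kB consensus, 55.6% NFAT, 6.75% AP-1 and 7.02% STAT, so an NFAT match is common. A match describes these letters and is not a bound site.

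The matrices held 2739 barcodes in D+F+P, 2809 in D+F, 2525 in aPD-1 and 2529 in control, with 22691663 to 34444856 UMIs a library. Of 9415 cells kept, the median was 1866 UMIs in D+F+P, 12882 in D+F, 9563.5 in aPD-1 and 16143 in control. In D+F+P 1002 of 2443 cells had under 1000 UMIs, though its regulatory T-like, CD8 T-like and melanoma-like cells had the highest class medians of the 4 libraries. Pairs of libraries shared 2 to 17 barcodes. Levels are UMIs per 1000000 UMIs of a class (CPM), with exact Poisson 95% intervals in parentheses. A difference is a log2 ratio of 2 such levels, with an exact binomial 95% interval. These intervals cover counting error only. A gene was counted in a comparison with at least 20 UMIs in the pair, and called higher or lower past 1.5-fold.

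Regulatory T-like cells numbered 65 in D+F+P, 68 in D+F, 81 in aPD-1 and 23 in control. They were 2.66% of the cells in D+F+P, 2.74% in D+F, 3.66% in aPD-1 and 1.01% in control. Of the T and NK cells they were 3.74% in D+F+P, 14.0% in D+F, 11.6% in aPD-1 and 20.9% in control. The order of the libraries thus depends on the cells they are set against, and melanoma-like cells were 21.8% of D+F+P and 83.5% of control cells. They formed 1 sub-cluster of the T and NK cells, clustered without the 10 genes. Its leading genes were Foxp3, Areg, Ass1, Ccr8, Izumo1r, Tnfrsf4, Ifi27l2a, Cxcl2, Ctla4 and Cd4. T and NK sub-clusters were first sorted by the shares of cells with CD8, Cd3e and Cd4 UMIs. This one had Cd3e, no large CD8 share, and more cells with Cd4 alone than with CD8 alone. Regulatory T markers outside the 10 genes then had to be detected. Of the 10 genes only Foxp3 entered the naming, as a leading gene beside Ctla4. Levels of the lineage markers Foxp3, Il2ra and Ikzf2 against other classes are descriptions. The sub-cluster was not pure. Of its 237 cells, 95 had a Foxp3 UMI, 84 had a Cd4 UMI and no Cd8a or Cd8b1 UMI, 34 had a CD8 UMI and no Cd4 UMI, and 119 had neither pattern. T cell receptor complex genes summed to 3172 CPM in D+F+P, 2883 in D+F, 3329 in aPD-1 and 2719 in control, against 2080 (control) to 3783 in CD8 T-like cells and 71.0 to 277 in NK-like cells. Genes that define CD8 T cells summed to 106 to 240 CPM, against 1282 to 1780 in CD8 T-like cells. Conventional CD4 T-like cells formed no sub-cluster of their own. They were the T and NK cells outside the regulatory T-like and NK-like sub-clusters that had a Cd4 UMI and no Cd8a or Cd8b1 UMI.

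Markers of other cells were found in the regulatory T-like class. All 4 melanoma markers were detected, at summed levels of 224 CPM in D+F+P, 631 in D+F, 437 in aPD-1 and 334 in control. They summed to 70.1 in D+F+P, 189 in D+F, 158 in aPD-1 and 271 in control CD8 T-like cells, and to 290 (control) to 753 (D+F) in NK-like cells. Plasmacytoid markers summed to 496 CPM in D+F+P, 536 in D+F, 442 in aPD-1 and 471 in control, against 184 to 242 in CD8 T-like cells. In aPD-1 and control all of it was Bst2, with Siglech and Ccr9 at 0. B cell and gamma delta T markers summed to 0 to 17.0 CPM. Myeloid markers were present for 0 to 2 of 5 genes, at 0 to 16.8 CPM, and NK markers summed to 0 to 30.4 CPM, against 218 to 316 in NK-like cells. ILC2 markers summed to 167 CPM in D+F+P, 5.59 in D+F, 12.7 in aPD-1 and 45.6 in control, and 34 of the D+F+P UMIs were Il13 in 1 cell without a Foxp3 UMI. The migratory dendritic markers summed to 167 CPM in D+F+P, 386 in D+F, 208 in aPD-1 and 775 in control, where all of it was Ccr7, which T cells also use, with Fscn1 and Ccl22 at 0. In an alternative, T and NK cells with at least 1% of UMIs from the 4 melanoma markers were left out. Cells with at least 5 UMIs of Lyz2, C1qa, C1qb, C1qc and Cd79a together were left out too. No count of genes moved by over 1.5 times. Cells under these limits stayed in, so smaller amounts of such RNA were not checked, and the part of the other cells was not tested.

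**Figure D1:**
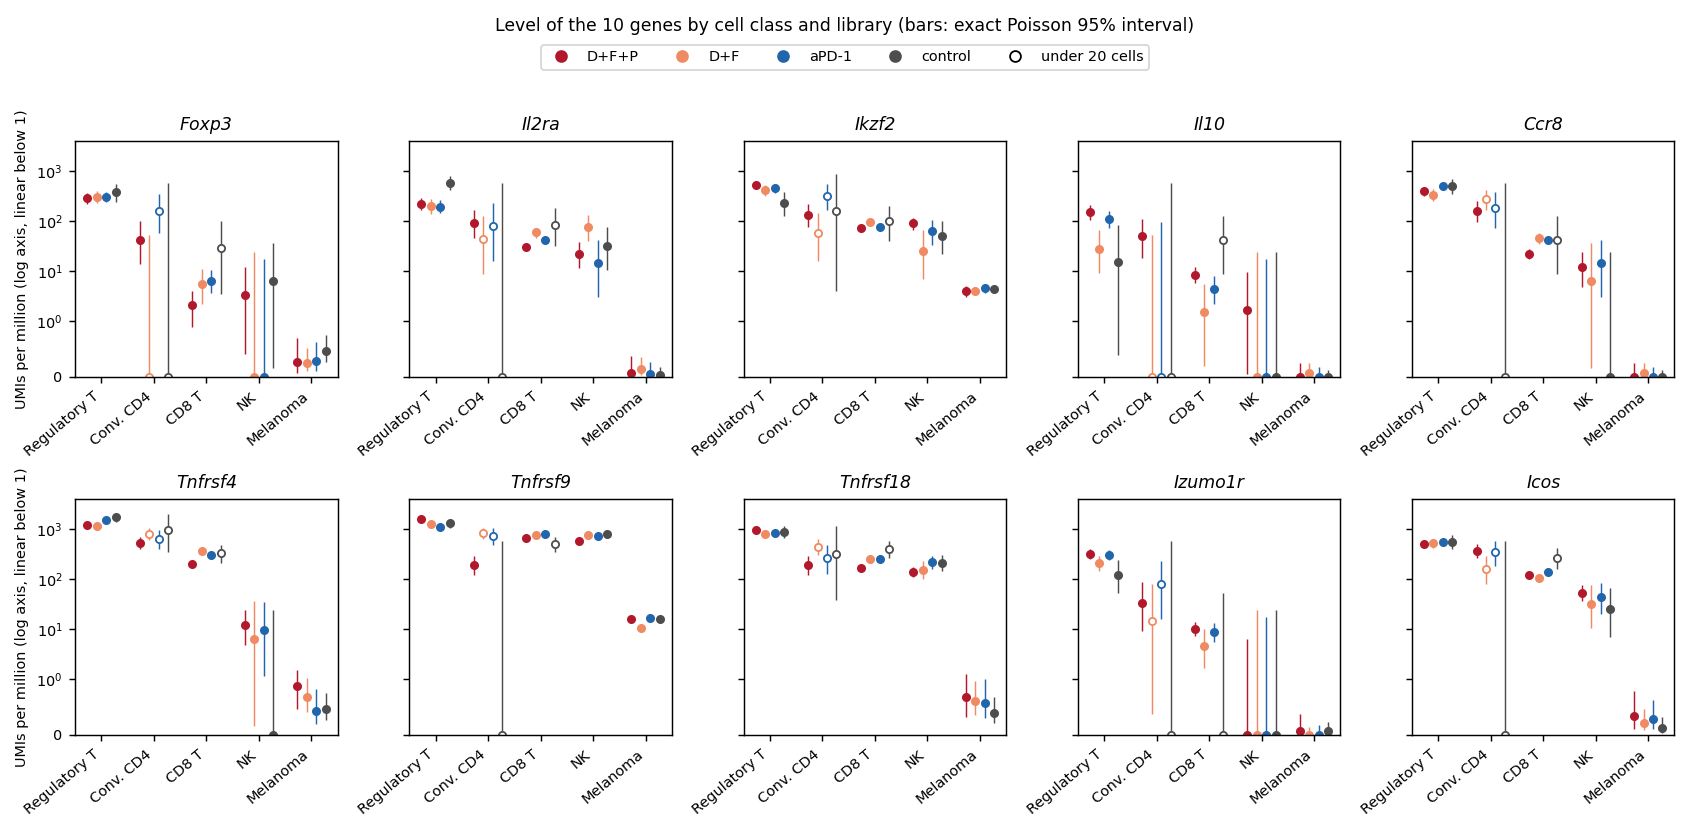
Level of each of the 10 genes (CPM, log axis that is linear below 1) in 5 cell classes for the D+F+P, D+F, aPD-1 and control libraries, with exact Poisson 95% intervals. Open symbols are classes of under 20 cells. Regulatory T-like cells hold the highest level of every gene in each library with enough cells, and Tnfrsf9 is the gene whose CD8 T-like and NK-like levels come nearest to theirs.

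Foxp3 was found in the regulatory T-like class at 289 CPM (225 to 364) in D+F+P, 302 (227 to 394) in D+F, 306 (239 to 385) in aPD-1 and 379.8 (246 to 561) in control, from 71 UMIs in D+F+P, 54 in D+F, 72 in aPD-1 and 25 in control. The 4 intervals overlapped, so the libraries could not be ordered for Foxp3. In CD8 T-like cells it was 2.05 CPM (0.887 to 4.05) in D+F+P, 5.41 (2.18 to 11.2) in D+F and 6.42 (3.67 to 10.4) in aPD-1, and in NK-like cells 0 to 2 UMIs were counted in a library. Conventional CD4 T-like cells were numerous enough in D+F+P alone (29 cells, against 12 in D+F, 5 in aPD-1 and 2 in control), and there Foxp3 was 42.4 CPM (13.8 to 99.0) from 5 UMIs in 1 cell. Melanoma-like cells, which should lack it, had 0.247 to 0.459 CPM. The log2 ratio of regulatory T-like over CD8 T-like cells was 7.13 (6.08 to 8.4) in D+F+P, 5.8 (4.66 to 7.18) in D+F and 5.57 (4.78 to 6.45) in aPD-1.

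The share of regulatory T-like cells with a Foxp3 UMI was 44.6% in D+F+P, 33.8% in D+F, 39.5% in aPD-1 and 47.8% in control. Of melanoma-like cells, 0.752% in D+F+P, 0.409% in D+F, 0.543% in aPD-1 and 0.737% in control had one. Median depth in the regulatory T-like class was 2592 UMIs a cell in D+F+P, 2052.5 in D+F, 2458 in aPD-1 and 1418 in control. In melanoma-like cells it was 28596 in D+F+P, 16328 in D+F, 18748.5 in aPD-1 and 17720.5 in control. Melanoma-like cells were therefore deeper and still had the gene in under 1% of cells. After each cell was thinned to 1000 UMIs, the share was 20.4% of 49 cells in D+F+P, 21.0% of 62 in D+F, 21.9% of 73 in aPD-1 and 26.7% of 15 in control. A second round of clustering, an alternative chosen after seeing the data, pooled this sub-cluster with the unnamed sub-clusters led by Ccl1 and by Trbv12-2 and Ly6c2. The resulting cluster with the highest Foxp3 share was taken, so its share is high by choice. That share was 69.4% of 36 cells in D+F+P, 68% of 25 in D+F, 60.5% of 43 in aPD-1 and 77.8% of 9 in control. Across all classes 151 cells had a Foxp3 UMI, and 95 of them (62.9%) were regulatory T-like. Melanoma-like cells made up 31 of the rest with 32 UMIs in all, 14 of these cells being from control, and CD8 T-like cells 12 with 33 UMIs. By library, the regulatory T-like part of the cells with a Foxp3 UMI was 64.4% in D+F+P, 67.6% in D+F, 71.1% in aPD-1 and 40.7% in control (11 of 27 cells).

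Ikzf2, which encodes Helios, was found in regulatory T-like cells at 533 CPM (445 to 632) in D+F+P, 413 (325 to 519) in D+F, 454 (372 to 549) in aPD-1 and 228 (128 to 376) in control. D+F+P was highest and control lowest, and the intervals of D+F+P and control did not overlap. Conventional CD4 T-like cells of D+F+P had 136 CPM (77.6 to 220.4), and CD8 T-like cells 74.2 CPM (65.9 to 83.3) in D+F+P, 94.3 (78.3 to 113) in D+F and 77.4 (66.9 to 89.2) in aPD-1. NK-like cells had 90.1 CPM (67.5 to 118) in D+F+P, 25.8 (7.02 to 66.0) in D+F, 62.6 (33.3 to 107) in aPD-1 and 51.6 (22.3 to 102) in control, and melanoma-like cells 3.94 to 4.56. The order in D+F+P was therefore regulatory T-like, then conventional CD4 T-like, NK-like and CD8 T-like cells, and the intervals of the last 3 overlapped. Regulatory T-like over CD8 T-like log2 ratios were 2.84 (2.53 to 3.15) in D+F+P, 2.13 (1.7 to 2.56) in D+F and 2.55 (2.2 to 2.9) in aPD-1.

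Il2ra, the high-affinity IL-2 receptor chain, was 224 CPM (168 to 291) in D+F+P, 201 (141 to 278) in D+F, 195 (143 to 261) in aPD-1 and 592 (421 to 809.9) in control in regulatory T-like cells. Control stood above the other 3 libraries, whose intervals overlapped. Its 39 UMIs came from 8 of 23 cells, with 10 and 9 UMIs in the top cells, so few cells carry the control value. With cells thinned to 1000 UMIs, control had 333 CPM, from 3 of 15 cells. The thinned level was 306 in D+F+P, 177 in D+F and 247 in aPD-1. CD8 T-like cells had 31.1 CPM (25.8 to 37.1) in D+F+P, 59.5 (47.0 to 74.4) in D+F and 42.5 (34.8 to 51.4) in aPD-1, and NK-like cells had 22.1 CPM (11.8 to 37.8) in D+F+P, 77.3 (39.9 to 135) in D+F, 14.4 (2.98 to 42.2) in aPD-1 and 32.3 (10.5 to 75.3) in control. In the D+F NK-like cells 6 of the 12 UMIs were in 1 cell. Regulatory T-like over CD8 T-like log2 ratios were 2.85 (2.36 to 3.32) in D+F+P, 1.76 (1.14 to 2.34) in D+F and 2.2 (1.67 to 2.71) in aPD-1, and over NK-like cells they were 3.34 (2.45 to 4.34) in D+F+P, 1.38 (0.4 to 2.46) in D+F, 3.76 (2.12 to 6.09) in aPD-1 and 4.2 (2.85 to 5.9) in control.

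Il10, an inhibitory cytokine, was 150.5 CPM (106 to 207) in D+F+P, 27.9 (9.07 to 65.2) in D+F, 110.4 (72.1 to 162) in aPD-1 and 15.2 (0.385 to 84.6) in control in regulatory T-like cells, from 37 UMIs in 15 cells of D+F+P, 5 UMIs in 4 cells of D+F, 26 UMIs in 13 cells of aPD-1 and 1 UMI in 1 cell of control. The intervals of D+F+P and aPD-1 lay above that of D+F. The control level rested on 1 UMI, and its interval overlapped that of aPD-1. In D+F+P, 12 of the 37 UMIs were in 1 cell and 5 in the next, and in aPD-1 the top cell held 5 of 26. In CD8 T-like cells the level was 8.47 CPM (5.83 to 11.9) in D+F+P, 1.55 (0.187 to 5.59) in D+F and 4.41 (2.20 to 7.90) in aPD-1, NK-like cells had 1 UMI in D+F+P and 0 in the other libraries, and melanoma-like cells had 2 UMIs in all. Il10 in the D+F+P CD8 T-like cells came from 33 UMIs in 20 of 336 cells. The regulatory T-like over CD8 T-like log2 ratio was 4.15 (3.43 to 4.87) in D+F+P and 4.64 (3.58 to 5.81) in aPD-1, while D+F had 5 UMIs in regulatory T-like and 2 in CD8 T-like cells and was not counted.

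Ccr8, the receptor for the chemokines Ccl1 and Ccl8, was 394 CPM (319.9 to 481) in D+F+P, 335 (256 to 432) in D+F, 501 (415 to 600.0) in aPD-1 and 501 (345 to 704) in control in regulatory T-like cells. The levels of aPD-1 and control were the highest and D+F the lowest, with all neighbouring intervals overlapping. The D+F+P conventional CD4 T-like cells had 161 CPM (97.0 to 252) and the 12 cells of that class in D+F had 275 CPM (165 to 429). In CD8 T-like cells Ccr8 was 22.3 CPM (17.9 to 27.6) in D+F+P, 45.6 (34.7 to 58.9) in D+F and 42.5 (34.8 to 51.4) in aPD-1, with D+F+P below both other libraries, and NK-like cells had 0 to 7 UMIs a library. Over CD8 T-like cells the log2 ratios were 4.14 (3.71 to 4.58) in D+F+P, 2.88 (2.33 to 3.42) in D+F and 3.56 (3.17 to 3.95) in aPD-1.

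Tnfrsf4, the receptor OX40, was 1204 CPM (1070.5 to 1349) in D+F+P, 1145 (994 to 1313) in D+F, 1546 (1391 to 1713) in aPD-1 and 1717 (1415 to 2064) in control in regulatory T-like cells. The levels of aPD-1 and control lay above those of D+F+P and D+F, and 35.4% of the control UMIs were in 1 cell. Conventional CD4 T-like cells came next, at 534 CPM (411 to 684) in D+F+P and 795 CPM (599 to 1035) in the 12 D+F cells. CD8 T-like cells had 201 CPM (187 to 216) in D+F+P, 367 (335 to 402) in D+F and 304 (283 to 327) in aPD-1, and NK-like cells had 7 UMIs in D+F+P, 1 in D+F, 2 in aPD-1 and 0 in control. Of the 3 TNF receptors, Tnfrsf4 was thus the one nearly missing from NK-like cells. Over CD8 T-like cells the log2 ratios were 2.58 (2.38 to 2.78) in D+F+P, 1.64 (1.4 to 1.88) in D+F and 2.35 (2.16 to 2.53) in aPD-1, and over NK-like cells 6.66 (5.6 to 7.99) in D+F+P, 7.47 (4.98 to 12.79) in D+F and 7.33 (5.46 to 10.38) in aPD-1. In control it was at least 88.7-fold higher than in NK-like cells, taking the 0 UMIs there at 3 counts for that class and library.

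Tnfrsf9, the receptor 4-1BB, was shared by all 3 lymphocyte lineages. It was 1635 CPM (1479 to 1803) in D+F+P, 1246 (1088 to 1421) in D+F, 1083 (954 to 1224) in aPD-1 and 1322 (1059 to 1630.2) in control in regulatory T-like cells, with D+F+P highest and aPD-1 lowest. CD8 T-like cells had 676 CPM (650.3 to 702) in D+F+P, 774 (727 to 824) in D+F and 787 (753 to 823) in aPD-1, and NK-like cells had 568 CPM (509 to 632) in D+F+P, 779 (647 to 931) in D+F, 731 (619.7 to 857) in aPD-1 and 787 (654 to 940.2) in control. In NK-like cells 41.3% of the D+F UMIs and 36.8% of the aPD-1 UMIs were in the top cell. The levels of CD8 T-like and NK-like cells had overlapping intervals in D+F and aPD-1, and in D+F+P the NK-like level was the lower. Conventional CD4 T-like cells of D+F+P had 195 CPM (124 to 293), the lowest of the lymphocyte classes there. In D+F, with cells thinned to 1000 UMIs, 11 cells of that class had 909 CPM and regulatory T-like cells 1032. Those 11 cells were too few for a ratio. The level in melanoma-like cells was 10.6 to 16.7 CPM.

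The Tnfrsf9 log2 ratio of regulatory T-like over CD8 T-like cells was 1.27 (1.12 to 1.43) in D+F+P, 0.69 (0.47 to 0.9) in D+F and 0.46 (0.27 to 0.65) in aPD-1. It was past 1.5-fold in D+F+P and D+F. The D+F call was lost when cells were thinned (0.22), when every cell counted equally (0.35) and without cycling cells (0.30), and in the aPD-1 library the second-round cluster put the ratio past the bound (1.08). Over NK-like cells the log2 ratios were 1.53 (1.31 to 1.74) in D+F+P, 0.68 (0.35 to 1.01) in D+F, 0.57 (0.27 to 0.87) in aPD-1 and 0.75 (0.33 to 1.16) in control. Without the top cell of each class they were 1.66 in D+F+P, 1.13 in D+F, 1.14 in aPD-1 and 0.88 in control. The D+F call over NK-like cells ended under the stricter cell filter (0.57) and the control call when every cell counted equally (0.28), and 4 of 10 alternatives put aPD-1 past the bound. The share of cells with a Tnfrsf9 UMI was 69.2% in D+F+P, 50% in D+F and 54.3% in aPD-1 for regulatory T-like cells, and 87.2% in D+F+P, 86.1% in D+F and 88.1% in aPD-1 for CD8 T-like cells, which were deeper (medians of 10861 UMIs in D+F+P, 6939 in D+F and 7070 in aPD-1). Thinned to 1000 UMIs, the share was 71.4% in D+F+P, 33.9% in D+F and 45.2% in aPD-1 for regulatory T-like cells, and 47.2% in D+F+P, 56.1% in D+F and 51.7% in aPD-1 for CD8 T-like cells, with 0.911% to 1.89% for melanoma-like cells. No order is read from these shares, since outside D+F+P they run against the CPM levels.

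Tnfrsf18, the receptor GITR, was 947 CPM (829.7 to 1077) in D+F+P, 816 (689 to 959) in D+F, 824 (712 to 948) in aPD-1 and 896 (682 to 1156) in control in regulatory T-like cells, with all 4 intervals overlapping. In control, 35.6% of the UMIs were in 1 cell. CD8 T-like cells had 165 CPM (153 to 178) in D+F+P, 258 (231 to 288) in D+F and 255 (236 to 276) in aPD-1, with D+F+P below the others, and NK-like cells had 139 CPM (111 to 173) in D+F+P, 155 (99.0 to 230.0) in D+F, 217 (158 to 289.7) in aPD-1 and 213 (147 to 299) in control. The conventional CD4 T-like level in D+F+P, 195 CPM (124 to 293), overlapped those of CD8 T-like and NK-like cells. In D+F+P, Tnfrsf18 thus had 1 high lymphocyte class and 3 low ones. That was not seen in D+F with cells thinned to 1000 UMIs. There 11 conventional CD4 T-like cells had 636 CPM and regulatory T-like cells 710, and the former were too few for a ratio. Over CD8 T-like cells the log2 ratios were 2.52 (2.3 to 2.74) in D+F+P, 1.66 (1.37 to 1.94) in D+F and 1.69 (1.45 to 1.92) in aPD-1.

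Izumo1r, the folate receptor family gene, was 317 CPM (251 to 396) in D+F+P, 207 (146 to 285) in D+F, 306 (239 to 385) in aPD-1 and 122 (52.5 to 239) in control in regulatory T-like cells, and 50% of the 8 control UMIs were in 1 cell. It was the 1 gene of the 10 with 0 UMIs in the NK-like cells of all 4 libraries, and melanoma-like cells had 3 UMIs in all. The CD8 T-like level was 10.3 CPM (7.34 to 14.0) in D+F+P, 4.64 (1.70 to 10.1) in D+F and 8.83 (5.53 to 13.4) in aPD-1, and conventional CD4 T-like cells of D+F+P had 33.9 CPM (9.24 to 86.9) from 4 UMIs. The log2 ratio over CD8 T-like cells was 4.95 (4.38 to 5.54) in D+F+P, 5.48 (4.22 to 7.01) in D+F and 5.11 (4.41 to 5.87) in aPD-1, and over NK-like cells the gene was at least 62.2-fold higher in D+F+P, 10.7-fold in D+F and 21.2-fold in aPD-1.

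Icos, the inducible co-stimulator of the CD28 family, was 496 CPM (412 to 592) in D+F+P, 525 (424 to 643) in D+F, 548 (457 to 651) in aPD-1 and 562 (396 to 775) in control in regulatory T-like cells, with all 4 intervals overlapping. Conventional CD4 T-like cells of D+F+P had 373 CPM (271 to 501). That was the 1 gene of the 10 for which the 2 CD4 classes did not differ past 1.5-fold, with a log2 ratio of 0.41 (-0.1 to 0.94). CD8 T-like cells had 123 CPM (112 to 134) in D+F+P, 104 (86.8 to 123) in D+F and 137 (123 to 153) in aPD-1, and NK-like cells had 52.7 CPM (35.8 to 74.8) in D+F+P, 32.2 (10.5 to 75.1) in D+F, 43.3 (19.8 to 82.2) in aPD-1 and 25.8 (7.03 to 66.1) in control. Over CD8 T-like cells the log2 ratios were 2.01 (1.72 to 2.3) in D+F+P, 2.34 (1.95 to 2.73) in D+F and 2.0 (1.69 to 2.29) in aPD-1.

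**Figure D2:**
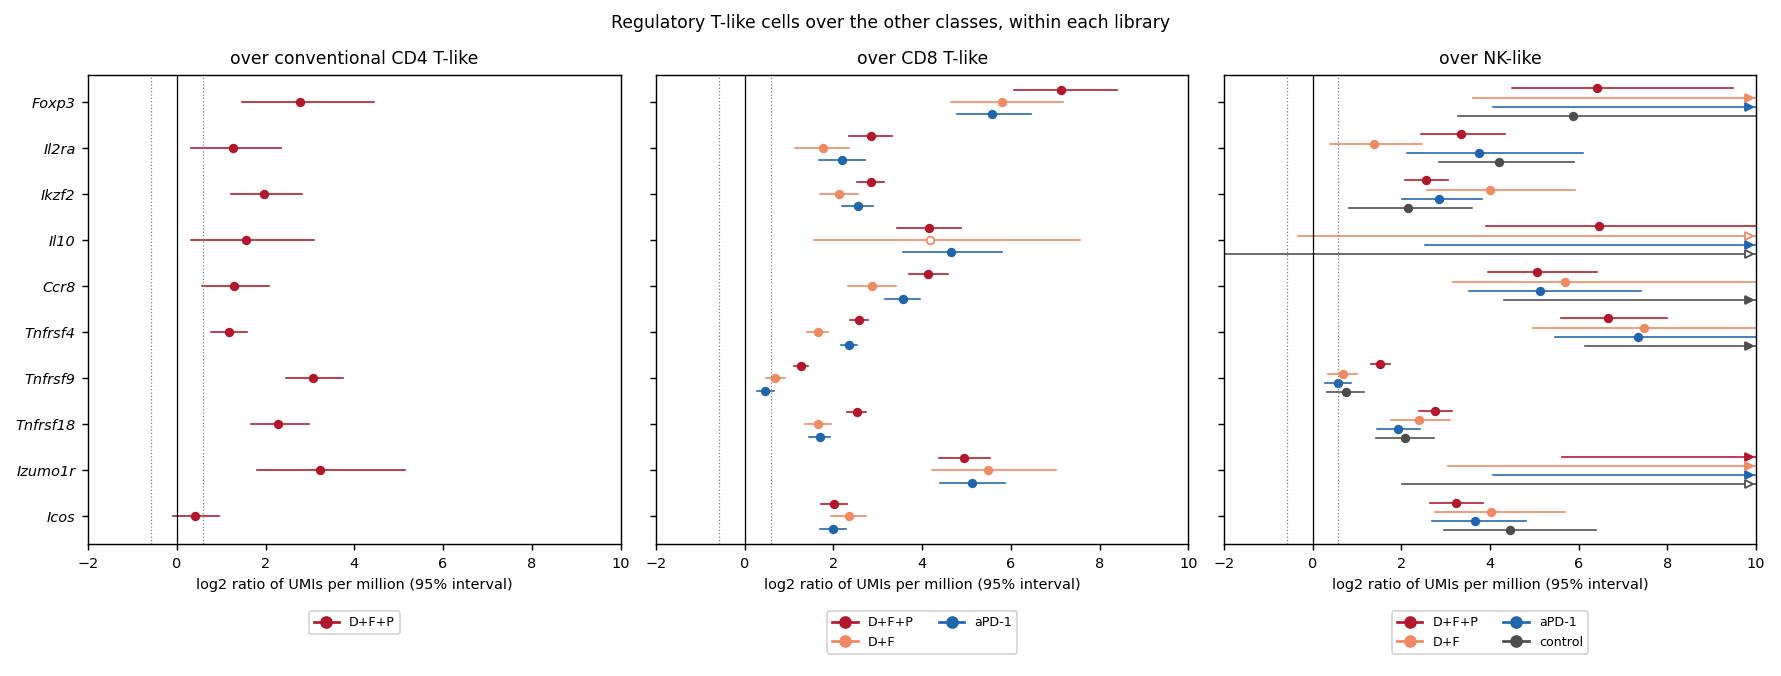
Log2 ratio of each gene in regulatory T-like cells over conventional CD4 T-like, CD8 T-like and NK-like cells of the same library, with exact 95% intervals. Dotted lines mark 1.5-fold, open symbols have under 20 UMIs in the pair, and triangles mark a class at 0. Nearly all points lie right of 1.5-fold, with Tnfrsf9 nearest to it over CD8 T-like and NK-like cells and Icos over conventional CD4 T-like cells.

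Against conventional CD4 T-like cells of D+F+P, 9 of the 10 genes were at least 1.5-fold higher in regulatory T-like cells, where 16.4% of all genes counted were higher. Beside Icos, the log2 ratios ran up to 3.23 (1.81 to 5.14) for Izumo1r and 3.07 (2.46 to 3.74) for Tnfrsf9. Tnfrsf18 was at 2.28 (1.66 to 2.97), Tnfrsf4 at 1.17 (0.78 to 1.59) and Ccr8 at 1.29 (0.57 to 2.08). The lineage markers were at 2.77 (1.48 to 4.43) for Foxp3, 1.97 (1.22 to 2.82) for Ikzf2 and 1.26 (0.31 to 2.34) for Il2ra. Il10 was at 1.56 (0.31 to 3.1), a call that thinning ended (0.36) and that an equal weight for every cell turned round (-0.21), and thinning also ended the call for Il2ra (0.36). The median over the 10 genes was 1.77, against -0.06 over all genes counted. These 29 cells are the only conventional CD4 T-like group large enough for a ratio. They were gated out of several sub-clusters. Of them, 9 lay in the unnamed sub-cluster led by Ccl1 and 10 in the one led by Trbv12-2 and Ly6c2, and 8 had under 1000 UMIs.

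Against CD8 T-like cells, 10 of 10 genes were higher in D+F+P (all genes counted 22.9%), 9 of 9 in D+F (all genes 24.3%) and 9 of 10 in aPD-1 (all genes 24.2%). The median log2 ratio of the 10 was 2.85 in D+F+P, against -0.13 over all genes, 2.13 against -0.05 in D+F, and 2.45 against 0.01 in aPD-1. The gene that missed the bound in aPD-1 was Tnfrsf9. Against NK-like cells, 10 of 10 were higher in D+F+P (all genes 13.3% higher and 39.7% lower), 9 of 9 in D+F (21.2%), 9 of 10 in aPD-1 (20.6%) and 8 of 8 in control (21.8%), and in aPD-1 Tnfrsf9 was again the one below the bound. Among the classes of enough cells, no gene of the 10 was lower in regulatory T-like cells past 1.5-fold. Foxp3 entered the naming of the class, so its place in these counts, and in those against conventional CD4 T-like cells, is a description. Thinning to 1000 UMIs left fewer genes with enough counts. Over CD8 T-like cells 6 of 6 were then higher in D+F+P, 6 of 7 in D+F and 8 of 9 in aPD-1, with Tnfrsf9 inside the bound at 0.22 in D+F and 0.52 in aPD-1. Over NK-like cells 6 of 6 were higher in D+F+P, 5 of 5 in D+F and 8 of 8 in aPD-1. The control CD8 T-like class, of 12 cells, was too small for a ratio.

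The receptors and Icos also separated the regulatory T-like cells from NK-like cells by unequal amounts. The Icos log2 ratio over NK-like cells was 3.23 (2.66 to 3.85) in D+F+P, 4.03 (2.75 to 5.68) in D+F, 3.66 (2.69 to 4.82) in aPD-1 and 4.44 (2.97 to 6.39) in control. For Tnfrsf18 it was 2.76 (2.4 to 3.15) in D+F+P, 2.4 (1.77 to 3.09) in D+F, 1.93 (1.45 to 2.43) in aPD-1 and 2.07 (1.43 to 2.73) in control. Icos was thus the further from NK-like cells of the pair. For Ikzf2 it was 2.56 (2.09 to 3.05) in D+F+P, 4.0 (2.59 to 5.92) in D+F, 2.86 (2.03 to 3.82) in aPD-1 and 2.14 (0.81 to 3.59) in control. Foxp3 had 2 UMIs in D+F+P NK-like cells and 1 in control, and was at least 15.6-fold higher in D+F and 21.2-fold higher in aPD-1. Ccr8 was at least 25.9-fold higher in control, where NK-like cells had 0 UMIs.

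Several of the genes often lay in the same cell. With every cell thinned to 1000 UMIs, regulatory T-like cells had a median of 4 of the 10 genes with a UMI in D+F+P, 2 in D+F, 4 in aPD-1 and 3 in control. At least 3 of the genes were found in 37 of 49 cells in D+F+P (75.5%), 27 of 62 in D+F (43.5%), 45 of 73 in aPD-1 (61.6%) and 12 of 15 in control (80%). That compares with 4 of 21 conventional CD4 T-like cells in D+F+P (19.0%) and 5 of 11 in D+F (45.5%), with 7.36% of CD8 T-like cells in D+F+P, 9.76% in D+F and 14.4% in aPD-1, and with 0% to 2.33% of NK-like cells. No melanoma-like cell had 3 or more, of 528 in D+F+P, 1697 in D+F, 1098 in aPD-1 and 1895 in control. The D+F library had the lowest share among the regulatory T-like cells.

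**Figure D3:**
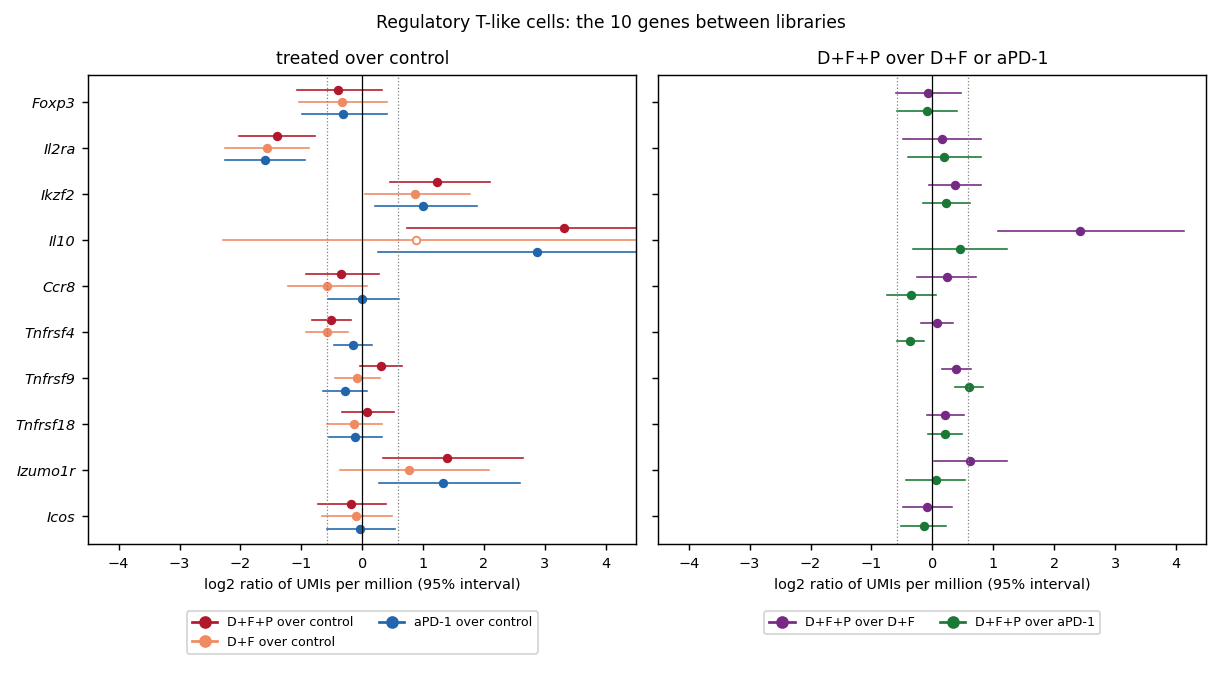
Log2 ratio of each gene between libraries within regulatory T-like cells, with exact 95% intervals, for D+F+P, D+F and aPD-1 each over control and for D+F+P over D+F and over aPD-1. Dotted lines mark 1.5-fold and open symbols have under 20 UMIs in the pair. Il2ra lies left of the lower line and Ikzf2 and Il10 right of the upper one over control, while Foxp3, Tnfrsf18 and Icos lie between the lines.

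Within regulatory T-like cells, Ikzf2, Il10 and Izumo1r were higher and Il2ra was lower in D+F+P than in control, and the other 6 genes were within 1.5-fold. Of all genes counted, 17.7% were higher and 21.4% lower, and the median log2 ratio was -0.05 over the 10 genes and -0.08 over all genes. The log2 ratios of D+F+P over control were 1.23 (0.45 to 2.1) for Ikzf2, 3.31 (0.74 to 8.65) for Il10, 1.38 (0.33 to 2.65) for Izumo1r and -1.41 (-2.02 to -0.77) for Il2ra. The control side is thin, with 15 UMIs for Ikzf2, 1 for Il10, 8 for Izumo1r and 39 for Il2ra from 23 cells. With every cell counting equally the Il2ra call ended (-0.41). The lineage gene Foxp3 was at -0.4 (-1.07 to 0.32), and the co-stimulatory receptors were at -0.51 (-0.83 to -0.19) for Tnfrsf4, 0.31 (-0.03 to 0.66) for Tnfrsf9, 0.08 (-0.34 to 0.52) for Tnfrsf18 and -0.18 (-0.72 to 0.39) for Icos. The median of ratios between the 2 libraries was -0.16 on the log2 scale, and scaling by it raised every ratio by that size and changed no call in this comparison. Melanoma markers summed to 224 CPM in D+F+P and 334 in control here, and migratory dendritic markers to 167 CPM in D+F+P and 775 in control, and their part was not tested.

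The same control library serves the next comparisons, so their values are set side by side and not counted as separate evidence. In D+F over control, 2 of 9 genes were higher and 1 lower (all genes 15.3% and 18.3%). Ikzf2 was at 0.86 (0.05 to 1.77), Izumo1r at 0.77 (-0.36 to 2.08) and Il2ra at -1.56 (-2.25 to -0.87), and an equal weight for every cell ended the Ikzf2 call (0.20). The Izumo1r interval held 0. In aPD-1 over control, 3 of 10 were higher and 1 lower (all genes 18.1% and 17.7%). Il10 was at 2.86 (0.26 to 8.22), Izumo1r at 1.33 (0.28 to 2.6), Ikzf2 at 1.0 (0.21 to 1.88) and Il2ra at -1.6 (-2.25 to -0.95). Foxp3 was at -0.33 (-1.04 to 0.41) in D+F and -0.31 (-0.99 to 0.41) in aPD-1, inside the bound and with 0 inside its interval. The median log2 ratio was -0.14 over the genes counted and -0.06 over all genes in D+F over control, and -0.08 over the genes counted and -0.04 over all genes in aPD-1 over control.

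D+F+P over D+F sets doxorubicin and fasudil with the antibody against the same drugs without it, and does not use the control library. Il10 and Izumo1r were higher and no gene was lower (2 and 0 of 10, with all genes at 13.2% and 15.7%). Il10 was at 2.43 (1.08 to 4.13), from 37 UMIs in D+F+P and 5 in D+F, and stayed past 1.5-fold under the 9 alternatives that gave a value (2.39 to 3.36). Izumo1r was at 0.62 (0.04 to 1.22), from 78 UMIs in D+F+P and 37 in D+F, and was below the bound under 4 of 10 alternatives, down to 0.23 with thinned cells. Tnfrsf9 was at 0.39 (0.15 to 0.63), inside the bound with 0 outside its interval, and Foxp3 at -0.06 (-0.59 to 0.47). In D+F+P over aPD-1, Tnfrsf9 alone was past the bound, at 0.59 (0.36 to 0.83). This is 1 higher and 0 lower of 10, with all genes at 9.99% and 18%. That ratio was below the bound under 5 of 10 alternatives, with 0.09 in the second-round cluster. Tnfrsf4 was at -0.36 (-0.59 to -0.14) and Il10 at 0.45 (-0.32 to 1.23) there. Both comparisons share the D+F+P library. The median was 0.23 over the genes counted and -0.07 over all genes against D+F, and 0.12 over the genes counted and -0.06 over all genes against aPD-1.

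**Figure D4:**
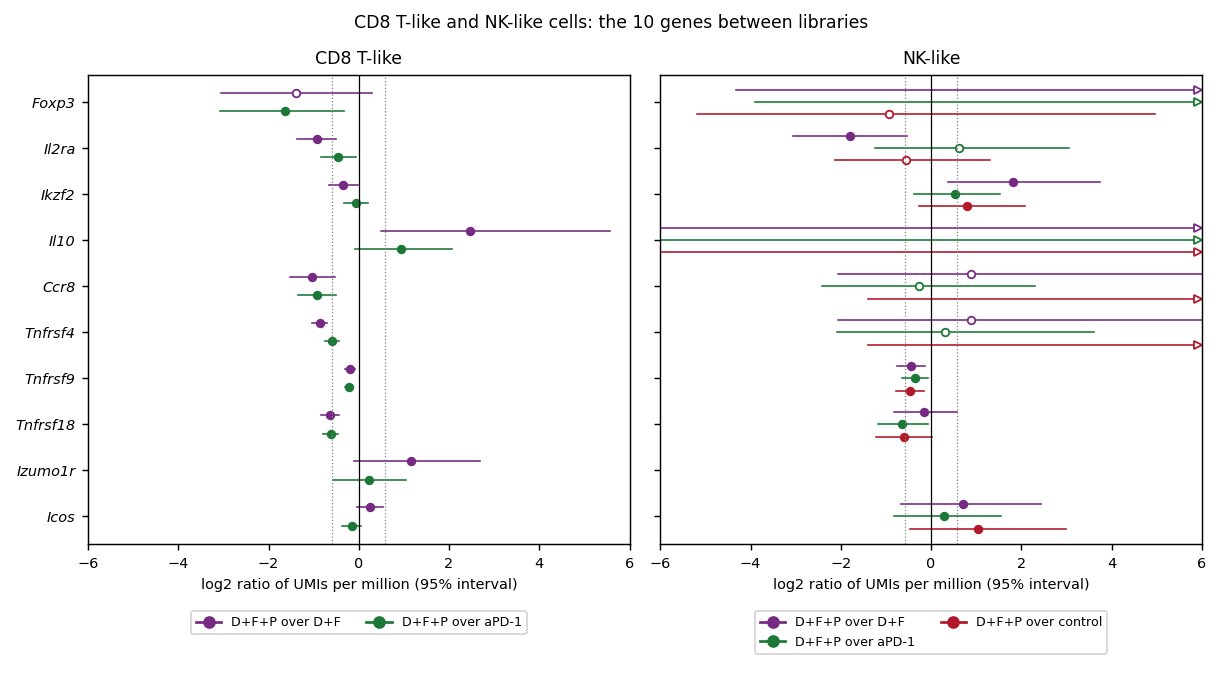
Log2 ratio of each gene within CD8 T-like cells (D+F+P over D+F and over aPD-1) and within NK-like cells (also over control), with exact 95% intervals. Dotted lines mark 1.5-fold, open symbols have under 20 UMIs in the pair, triangles mark a library at 0, and Izumo1r was at 0 in all NK-like cells. In CD8 T-like cells Ccr8, Tnfrsf4 and Tnfrsf18 lie left of the lower line for D+F+P over both D+F and aPD-1, and Tnfrsf9 and Icos lie between the lines.

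In CD8 T-like cells, Ccr8, Tnfrsf4 and Tnfrsf18 were lower in D+F+P than in D+F and than in aPD-1, while Tnfrsf9 and Icos stayed within 1.5-fold. Over D+F, 2 genes were higher and 4 lower of 9 (all genes 12.9% and 8.26%). The log2 ratios were -1.03 (-1.52 to -0.53) for Ccr8, -0.94 (-1.36 to -0.51) for Il2ra, -0.87 (-1.04 to -0.7) for Tnfrsf4 and -0.65 (-0.84 to -0.45) for Tnfrsf18. Tnfrsf9 was at -0.2 (-0.3 to -0.09) and Icos at 0.24 (-0.03 to 0.53). The 2 higher genes were Il10, at 2.45 (0.49 to 5.56) from 33 UMIs in D+F+P and 2 in D+F, and Izumo1r, at 1.15 (-0.1 to 2.68) from 40 in D+F+P and 6 in D+F. Both turned round under 1 alternative, Il10 to -0.99 with thinned cells and Izumo1r to -0.11 without cycling cells. The median was -0.35 over the genes counted and within 0.01 of 0 over all genes. The listed markers of other cells that were counted were also lower in D+F+P, 6 of 7 over D+F (median -1.44) and 5 of 7 over aPD-1 (median -1.07). Melanoma markers summed to 70.1 CPM in D+F+P, 189 in D+F and 158 in aPD-1, and migratory dendritic markers to 20.8 in D+F+P, 88.9 in D+F and 28.5 in aPD-1. With cells removed that reached the melanoma or myeloid limits given above, 6 of the genes over D+F and 5 over aPD-1 were again past the bound. Cells with smaller amounts of such UMIs stayed in. CD8 T-like cells were 336 in D+F+P, 166 in D+F and 329 in aPD-1.

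Over aPD-1, 1 gene was higher and 4 lower of 10 in CD8 T-like cells (all genes 9.43% and 7.18%). Ccr8 was at -0.93 (-1.35 to -0.51), Tnfrsf4 at -0.6 (-0.74 to -0.45) and Tnfrsf18 at -0.63 (-0.79 to -0.47). Foxp3 was at -1.64 (-3.08 to -0.34), from 8 UMIs in 3 cells of D+F+P and 16 in 4 cells of aPD-1, and lost its call when the 10 genes were kept in the clustering (-0.14). Il10 was the higher gene, at 0.94 (-0.08 to 2.07), and turned round with thinned cells (-1.0), as Ccr8 did (0.11). The call for Tnfrsf4 lay near the bound and ended under 2 of 11 alternatives (-0.55 and -0.58), and that for Tnfrsf18 ended under 4. Over D+F, Tnfrsf4 ended with thinned cells (-0.58) and Tnfrsf18 under 4 of 11, and Il2ra over D+F ended with gated cells (-0.56) and without cycling cells (-0.18). Ccr8 over D+F ended with gated cells (-0.58) and when every cell counted equally (-0.49), and over aPD-1 without cycling cells (-0.45). D+F+P CD8 T-like cells were deeper in UMIs a cell (median 10861) than those of D+F (6939) and aPD-1 (7070), and the part of depth was not tested beyond thinning. The median over aPD-1 was -0.34 over the genes counted and 0.01 over all genes.

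In NK-like cells, Tnfrsf9 and Tnfrsf18 were the genes with enough UMIs in every pair, and Tnfrsf9 stayed within 1.5-fold in all 5 comparisons. Its log2 ratio was -0.47 (-0.77 to -0.16) for D+F+P over control, -0.02 (-0.39 to 0.36) for D+F over control and -0.11 (-0.46 to 0.25) for aPD-1 over control. The NK-like cells of D+F+P were mostly a sub-cluster with few ribosomal protein UMIs (271 of 351 cells, against 21 of 68 in D+F, 43 of 86 in aPD-1 and 2 of 42 in control), and their median depth was 729 UMIs. Without that sub-cluster, the Tnfrsf9 level was 708 CPM in D+F+P, 817 in D+F, 764 in aPD-1 and 786 in control. The order of the libraries for Tnfrsf9 in NK-like cells cannot be told from these values. D+F+P over control passed the bound with thinned cells (-1.21), when every cell counted equally (-1.44) and without cycling cells (-1.33). D+F over control passed it under 4 of 11 alternatives, down to -1.6 with thinned cells, and aPD-1 over control with gated (-0.77) and thinned cells (-0.93). The ratio of D+F+P over D+F passed it without cycling cells (-0.62) and, on the other side, with gated cells (0.67), and that of D+F+P over aPD-1 passed it when every cell counted equally (-0.92) and without cycling cells (-0.93).

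D+F+P over control had 2 genes higher and 1 lower of 4 counted in NK-like cells, beside 38.5% and 14.3% of all genes and a median of 0.27 over them. The median of ratios here was -0.29 on the log2 scale, and scaling by it raised every ratio by that size, which ended the call for Tnfrsf18 (-0.32). Icos was at 1.03 (-0.47 to 2.99) and Ikzf2 at 0.8 (-0.28 to 2.09), both with 0 inside the interval. Icos ended with thinned cells (0.13), and Ikzf2 turned round without the low-ribosomal sub-cluster (-0.30) and in gated cells (-1.11). Tnfrsf18 was at -0.61 (-1.21 to 0.02), and lost its call or turned round under 5 of 11 alternatives, reaching 0.22 with thinned cells. D+F over control had 0 of 2 past the bound (all genes 13.9% and 19.7%) and aPD-1 over control 0 of 3 (19.9% and 17.8%). D+F+P over D+F had 2 higher and 1 lower of 5 (35.5% and 8.47%), with Ikzf2 at 1.81 (0.37 to 3.73), Icos at 0.71 (-0.66 to 2.43) and Il2ra at -1.81 (-3.05 to -0.54). Icos there turned round with thinned cells (-0.62), Il2ra when every cell counted equally (0.11), and Ikzf2 missed the bound in gated cells (0.30). D+F+P over aPD-1 had 0 higher and 1 lower of 4 (29% and 8.96%), with Tnfrsf18 at -0.63 (-1.18 to -0.08), which lost its call or turned round under 6 of 11 alternatives, reaching 0.21 with thinned cells.

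**Figure D5:**
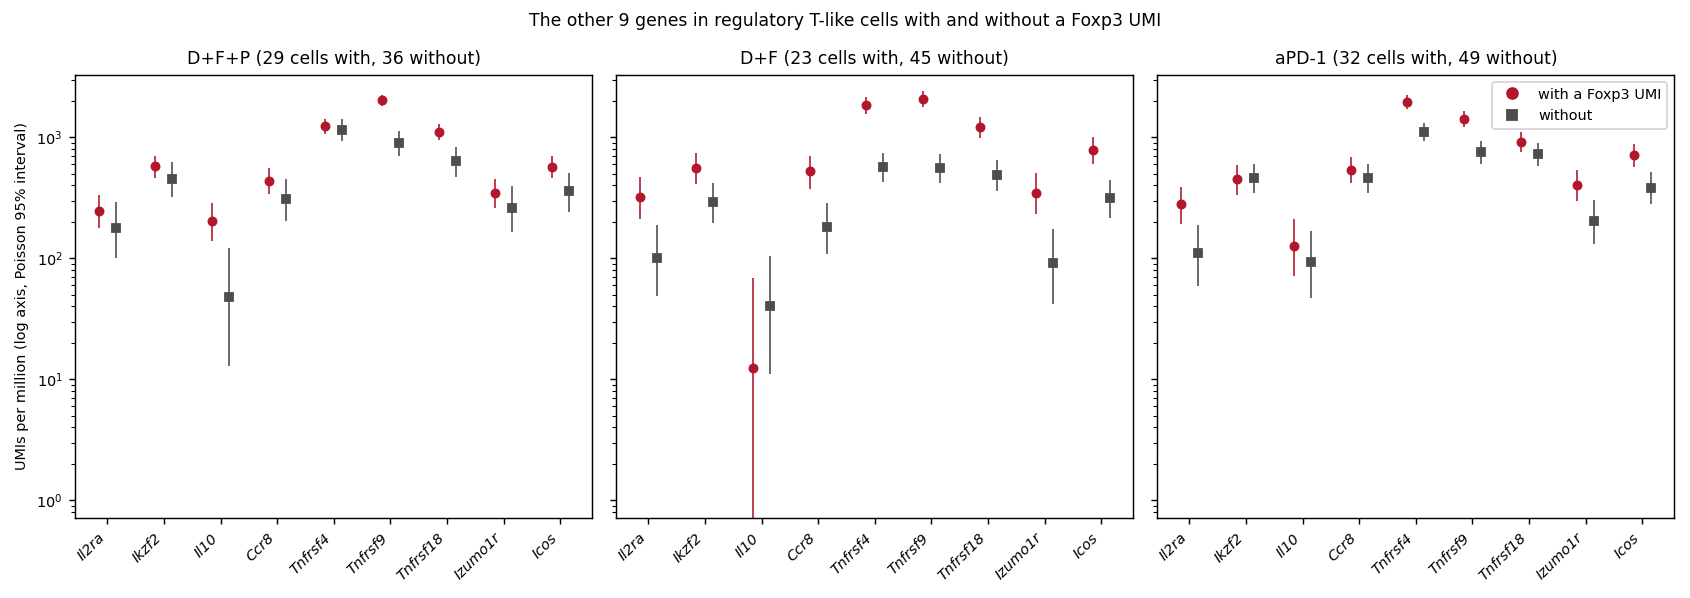
Level of the other 9 genes (CPM, log axis, exact Poisson 95% intervals) in regulatory T-like cells with and without a Foxp3 UMI, in the D+F+P, D+F and aPD-1 libraries. Tnfrsf9 is higher in the cells with a Foxp3 UMI in each of the 3 libraries, with intervals that do not overlap.

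Within the regulatory T-like class, cells with a Foxp3 UMI had more Tnfrsf9 than cells without one. Tnfrsf9 was 2019 against 893 CPM in D+F+P, 2088 against 558 in D+F and 1413 against 750.1 in aPD-1, with log2 ratios of 1.18 (0.81 to 1.56) in D+F+P, 1.9 (1.46 to 2.37) in D+F and 0.91 (0.53 to 1.3) in aPD-1. Icos was also past 1.5-fold in each library, at 0.67 (0.06 to 1.31) in D+F+P, 1.31 (0.67 to 1.98) in D+F and 0.89 (0.35 to 1.45) in aPD-1. Tnfrsf4 was inside the bound in D+F+P, at 0.09 (-0.27 to 0.45), but higher in D+F, at 1.7 (1.25 to 2.17), and in aPD-1, at 0.82 (0.51 to 1.14). Tnfrsf18, the GITR gene, was past the bound in D+F+P and D+F, at 0.82 (0.37 to 1.29) in D+F+P, 1.32 (0.81 to 1.85) in D+F and 0.35 (-0.07 to 0.77) in aPD-1. Il10 was higher in D+F+P, at 2.1 (0.61 to 4.05), and was at 0.44 (-0.78 to 1.7) in aPD-1.

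The genes past 1.5-fold numbered 4 of 9 counted in D+F+P (all genes 17%), 8 of 8 in D+F (17.9%) and 5 of 9 in aPD-1 (17%). The median log2 ratio of the genes was 0.50 in D+F+P, against 0.05 over all genes, 1.51 against 0.01 in D+F, and 0.82 against 0.07 in aPD-1. Il2ra was at 0.47 (-0.42 to 1.43) in D+F+P, 1.67 (0.57 to 2.89) in D+F and 1.33 (0.37 to 2.38) in aPD-1. Ikzf2, the Helios gene, was past the bound in D+F alone, at 0.34 (-0.22 to 0.93) in D+F+P, 0.93 (0.22 to 1.65) in D+F and -0.04 (-0.61 to 0.54) in aPD-1. The median was highest in D+F, where the cells with a Foxp3 UMI had 522 CPM of Ccr8 and 348 of Izumo1r, and the cells without one had 183 CPM of Ccr8 and 91.4 of Izumo1r. Cells with a Foxp3 UMI were deeper, with medians of 4858 against 1488 UMIs in D+F+P, 3749 against 1727 in D+F and 2927.5 against 2260 in aPD-1, and the part of depth was not tested.

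Among 30 other regulatory T genes, more were higher than lower in regulatory T-like than in CD8 T-like cells. The list holds 6 of the markers used for the name, and these genes helped to form the clusters, so the counts describe the class. Of all genes counted, 22.9% were higher and 30.8% lower in D+F+P, 24.3% higher and 27.9% lower in D+F, and 24.2% higher and 23.2% lower in aPD-1. The list had 18 of 24 counted genes higher and 3 lower (median log2 ratio 2.23) in D+F+P, 13 of 20 counted genes higher and 4 lower (median log2 ratio 1.34) in D+F and 17 of 23 counted genes higher and 3 lower (median log2 ratio 1.68) in aPD-1. Near the upper end in D+F+P stood Maf (a transcription factor) at 5.33 (4.6 to 6.12) and Nt5e (CD73, an enzyme that makes adenosine) at 4.06 (3.1 to 5.01). At the other end stood the chemokine receptor Cxcr6 at -1.61 (-2.32 to -0.97) and Rgs16, a regulator of G protein signalling, at -1.43 (-1.75 to -1.13). Areg (amphiregulin, a growth factor of tissue repair) was at 4.32 (3.82 to 4.84) in D+F, and Lrrc32 (GARP, which holds latent TGF-beta at the surface) at 6.07 (4.3 to 8.47) in aPD-1. Ctla4, the inhibitory receptor of the CD28 family, was at 2.26 (2.08 to 2.43) in D+F+P, 1.68 (1.41 to 1.94) in D+F and 2.15 (1.98 to 2.32) in aPD-1, and Pdcd1 (PD-1) was lower, at -0.98 (-1.37 to -0.61) in D+F+P, -2.24 (-2.9 to -1.66) in D+F and -0.76 (-1.08 to -0.45) in aPD-1.

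The TRAF and NF-kB list and the IL-2 receptor and STAT5 list also held more higher than lower genes against CD8 T-like cells. The second list includes Il2 and receptor chains. Of all genes counted, 22.9% were higher and 30.8% lower in D+F+P, 24.3% and 27.9% in D+F, and 24.2% and 23.2% in aPD-1. The TRAF and NF-kB list had 15 of 24 counted genes higher and 2 lower (median log2 ratio 1.32) in D+F+P, 17 of 23 counted genes higher and 1 lower (median log2 ratio 0.89) in D+F and 14 of 24 counted genes higher and 0 lower (median log2 ratio 0.75) in aPD-1. In D+F+P the NF-kB subunits Nfkb1 and Rel were at 2.13 (1.6 to 2.64) and 2.06 (1.57 to 2.53), the inhibitor Nfkbia at 2.09 (1.95 to 2.23), and the adaptor Traf2 at -1.87 (-4.94 to 0.01). The IL-2 receptor and STAT5 list had 9 of 13 counted genes higher and 1 lower (median log2 ratio 1.28) in D+F+P, 9 of 11 counted genes higher and 0 lower (median log2 ratio 0.98) in D+F and 10 of 12 counted genes higher and 0 lower (median log2 ratio 1.26) in aPD-1. The STAT5-induced inhibitors Cish and Socs2 were at 2.45 (2.02 to 2.87) and 3.35 (1.96 to 4.66) in D+F+P, the IL-7 receptor gene Il7r at 3.4 (2.39 to 4.37), and Il2rb, the beta chain that pairs with Il2ra, at -0.16 (-0.38 to 0.06). The other TNF receptors had 3 of 5 counted genes higher and 2 lower (median log2 ratio 0.8) in D+F+P, including Fas at 1.58, Tnfrsf1b (TNF receptor 2) at 0.85 and Cd27 at 0.8 (0.42 to 1.16). The CD28 family had 3 of 6 counted genes higher and 2 lower (median log2 ratio 0.22) in D+F+P, and the ligands of the 10 genes 0 of 4 counted genes higher and 2 lower (median log2 ratio -0.51).

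Over CD8 T-like cells, T cell activation genes had 6 of 18 counted genes higher and 7 lower (median log2 ratio 0.08) in D+F+P, 4 of 18 counted genes higher and 10 lower (median log2 ratio -0.78) in D+F and 4 of 18 counted genes higher and 9 lower (median log2 ratio -0.5) in aPD-1. All genes counted there were 22.9% higher and 30.8% lower in D+F+P, 24.3% and 27.9% in D+F, and 24.2% and 23.2% in aPD-1. Irf4, a transcription factor of activated T cells, was at 2.44 in D+F+P, while the effector genes Ifng and Ccl4 were at -1.69 (-2.45 to -1.02) and -2.18 (-2.61 to -1.77). Against conventional CD4 T-like cells of D+F+P, 16.4% of all genes were higher and 22.1% lower. The other regulatory T genes had 9 of 21 counted genes higher and 7 lower (median log2 ratio 0.12), the TRAF and NF-kB genes 4 of 15 counted genes higher and 2 lower (median log2 ratio 0.03), the IL-2 genes 2 of 9 counted genes higher and 1 lower (median log2 ratio 0.35) and the activation genes 6 of 14 counted genes higher and 3 lower (median log2 ratio -0.13). Areg was at 3.92 (2.78 to 5.39), Lag3 at 3.11 (1.83 to 4.77), Cd27 at 3.05 (1.63 to 4.96) and Ctla4 at 1.69 (1.27 to 2.13) there. Against NK-like cells of D+F+P, the other regulatory T genes had 13 of 19 counted genes higher and 2 lower (median log2 ratio 1.49), the TRAF and NF-kB genes 4 of 22 counted genes higher and 6 lower (median log2 ratio -0.08) and the IL-2 genes 5 of 11 counted genes higher and 3 lower (median log2 ratio 0.51), with Il2rb lower at -1.01 (-1.25 to -0.78). Of all genes counted over NK-like cells, 13.3% were higher and 39.7% lower.

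Between libraries, within regulatory T-like cells, the activation genes of D+F+P over control had 8 of 13 counted genes higher and 0 lower (median log2 ratio 0.89), against 17.7% of all genes higher, with 2 to 3 control UMIs behind the leading genes Tox, Irf8 and Egr1. In D+F over control they had 3 of 10 counted genes higher and 1 lower (median log2 ratio 0.11), and in aPD-1 over control 6 of 12 counted genes higher and 0 lower (median log2 ratio 0.61). Of all genes counted, 21.4% were lower in D+F+P over control. In D+F over control 15.3% were higher and 18.3% lower, and in aPD-1 over control 18.1% were higher and 17.7% lower. The other regulatory T genes had 4 of 20 counted genes higher and 3 lower (median log2 ratio 0.12) in D+F+P, 0 of 14 counted genes higher and 4 lower (median log2 ratio -0.15) in D+F and 5 of 20 counted genes higher and 5 lower (median log2 ratio 0.21) in aPD-1. Tigit, an inhibitory receptor, was at 1.18 (0.61 to 1.8) in D+F+P over control. Penk, the gene of proenkephalin, was at -1.33 (-2.0 to -0.65) and Ebi3, a subunit of IL-35, at -2.61 (-3.84 to -1.45). Over D+F, the D+F+P cells had 7 of 22 counted genes higher and 3 lower (median log2 ratio 0.2). Over aPD-1 they had 2 of 24 counted genes higher and 3 lower (median log2 ratio 0.09), with Areg at 1.7 (1.26 to 2.16) and Lrrc32 at -1.31. Of the other lists, the activation gene Lag3 was at 1.28 and the NF-kB gene Nfkb1 at 1.44 over D+F. All genes counted were 13.2% higher and 15.7% lower over D+F, and 9.99% higher and 18% lower over aPD-1. In the CD8 T-like cells of D+F+P over D+F, where Tnfrsf4 and Tnfrsf18 were lower, the TRAF and NF-kB genes had 4 of 24 counted genes higher and 4 lower (median log2 ratio -0.14), with the adaptor Traf1 at -0.88 (-1.12 to -0.64) and Tnfsf4, the ligand of OX40, at -1.28 (-1.78 to -0.78). Of all genes counted there, 12.9% were higher and 8.26% lower.

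The genes whose levels ran most like those of the 10 were sought over the 12 class and library points with at least 20 cells, among 7936 genes, by Pearson's r of log2(CPM + 10). The points share libraries and are not independent. Nearest to Foxp3 were Got1 (0.983), Ltb (0.967), Tmem123 (0.956), Gbp3 (0.951) and Lrba (0.945). Nearest to Tnfrsf4 were Cd5 (0.987) and Ifi27l2a (0.982), to Tnfrsf18 Ikzf4 (0.947) and Ltb (0.946), and to Tnfrsf9 Ccrl2 (0.95) and Pgm2 (0.906). Nearest to Il2ra were Rab11fip1 (0.957) and Ltb (0.934), to Ikzf2 Lrba (0.963) and Tap1 (0.959), and to Il10 Scand1 (0.941) and Ppdpf (0.921). For Ccr8 they were Bmyc and Lrba (0.968 each), for Izumo1r Npc2 (0.981) and Ikzf4 (0.979), and for Icos Slc36a3os (0.984) and Sdcbp2 (0.976). Among the 10 genes, Ccr8 and Icos were the most alike (0.981), Foxp3 and Izumo1r had 0.968, and Tnfrsf9 stood apart, with 0.208 to 0.708 to the others.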

How the data were processed

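The data were 5′ single-cell counts from 4 tumour libraries, 1 per group. The deposited values were UMI counts per gene and cell, made by the authors with Cell Ranger 3.1.0 on GRCm38/mm10, per the submitters' processing notes. Whether reads of the opposite strand were counted is not given in the sources used here. Totals were 22691663 to 34444856 UMIs a library. The members of the gene set and the gene lists were chosen with earlier results of these data known.

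Barcodes passed with 300 genes or more, 500 UMIs or more and no more than 20% of UMIs from mitochondrial genes (9461 of 10602). Scrublet marked 46 of them (0.486%), too few for its calls to have worked, and these were removed, so doublets remain among the 9415 cells. Cells were clustered with scanpy 1.11.5 and leidenalg 0.10.2 (2000 variable genes, 30 components, 15 neighbours, resolution 1), the T and NK cells in a second step, without the 10 genes. Receptor V, D and J genes were kept in the clustering and left out only of the search for genes nearest in level. Classes were named "-like" from marker lists, and T and NK sub-clusters first from the shares of cells with CD8, Cd3e and Cd4 UMIs. Conventional CD4 T-like cells were instead gated (Cd4 UMI, no Cd8a or Cd8b1 UMI) outside the regulatory T-like and NK-like sub-clusters. A class entered a ratio with at least 20 cells in the library.

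Counts were summed per class and library and given per 1000000 UMIs of that class (CPM). Intervals are exact Poisson (levels), Clopper-Pearson (shares) and conditional binomial (ratios) 95% intervals from scipy 1.17.1. With 1 library a group no p-value, standard error or test was computed. A class at 0 UMIs was set to 3 counts for a lower bound. The procedure was tested on simulated data. Named beside the 10 genes were up to 3 genes at each end of a list's log2 ratios, with at least 20 UMIs in the pair, and the genes nearest in level (5 for Foxp3, 2 for each other gene). 1 gene this rule names is not reported here. Results were recomputed under 12 other processing choices, and under 1 more that was chosen after seeing the data. Python 3.11.15, numpy 2.4.6, pandas 2.3.3, anndata 0.12.19 and matplotlib 3.10.9 were used.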

Additional observations from a re-analysis of the deposited data

How the results depend on the processing

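No paired analysis was possible because each group had 1 library. Of 262 counts and shares recomputed under 13 alternatives, 206 stayed within 1.5 times of the value reported or within its interval and 56 moved. Of the single ratios of the 10 genes, 1685 kept their size, 160 moved and 11 turned round. The cause of each move was not tested, except that thinning, a 50-UMI minimum and a 2-fold bound leave fewer genes to count. Counts below are genes past the bound, with the reported value in parentheses. Median-of-ratios scaling (22 recomputed) moved none. Removal of T and NK cells with at least 1% melanoma UMIs, or at least 5 myeloid or Cd79a UMIs, also moved none (24). A gate on each cell left 14 cells with Cd4 and Foxp3 UMIs in D+F+P, 7 in D+F, 17 in aPD-1 and 5 in control, too few for a regulatory T class, so those ratios were not run.

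With cells thinned, regulatory T-like cells had 5 genes (9) over conventional CD4 T-like cells, 6 (10) over CD8 T-like and 6 (10) over NK-like cells in D+F+P, and 5 (9) over NK-like cells in D+F. In CD8 T-like cells D+F+P had 1 (6) over D+F and 1 (5) over aPD-1. In NK-like cells D+F+P had 1 (3) over control, 0 (3) over D+F and 0 (1) over aPD-1, while D+F and aPD-1 each had 1 (0) over control. The share of regulatory T-like cells with a Foxp3 UMI was 20.4% in D+F+P, 21% in D+F, 21.9% in aPD-1 and 26.7% in control. Il10 in CD8 T-like cells turned to -0.99 for D+F+P over D+F and -1.0 over aPD-1, and Ccr8 to 0.11 over aPD-1. In NK-like cells of D+F+P, Tnfrsf18 turned to 0.22 over control and 0.21 over aPD-1, and Icos to -0.62 over D+F.

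With a 2-fold bound, regulatory T-like cells had 1 (3) for D+F over control, 1 (2) for D+F+P over D+F and 0 (1) for D+F+P over aPD-1. CD8 T-like cells had 3 (6) and 1 (5) for D+F+P over D+F and over aPD-1, and NK-like cells 1 (3) for D+F+P over control and 0 (1) over aPD-1. With at least 50 UMIs, regulatory T-like over NK-like cells of control had 3 (8), D+F+P over D+F had 1 (2) in regulatory T-like and 1 (3) in NK-like cells, and D+F+P over aPD-1 had 3 (5) in CD8 T-like cells. Genes of the lists past the bound between libraries numbered 132 at 2-fold and 153 at 50 UMIs (286).

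In gated cells D+F+P had 2 (6) over D+F and 3 (5) over aPD-1 in CD8 T cells, and in NK cells 0 (3) over control, with 2 (0) for D+F and 1 (0) for aPD-1 over control. Ikzf2 in NK cells turned to -1.11 for D+F+P over control. Without low-ribosomal sub-clusters, NK-like cells of D+F+P had 1 (3) over control, 1 (3) over D+F and 0 (1) over aPD-1, and Ikzf2 turned to -0.30 over control. With the stricter cell filter they had 1 (3) over control and 0 (1) over aPD-1, and the Foxp3 share in D+F+P was 59.2%.

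Without cycling cells, CD8 T-like cells of D+F+P had 3 (6) over D+F and 2 (5) over aPD-1, NK-like cells had 2 (0) for D+F over control and 3 (1) for D+F+P over aPD-1, and Izumo1r in CD8 T-like cells turned to -0.11 over D+F. With every cell counting equally, regulatory T-like cells had 3 (1) for D+F+P over aPD-1. NK-like cells had 2 (0) for D+F over control, 1 (0) for aPD-1 over control and 2 (1) for D+F+P over aPD-1. Il10 in regulatory T-like over conventional CD4 T-like cells turned to -0.21, and Il2ra in NK-like cells of D+F+P over D+F to 0.11.

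With the 10 genes kept in the clustering, CD8 T-like cells had 3 (5) for D+F+P over aPD-1. At resolution 1.5, regulatory T-like cells had 1 (2) for D+F+P over D+F and 0 (1) over aPD-1. With the second-round cluster as the regulatory T-like class, chosen after seeing the data, D+F+P had 1 (2) over D+F and 2 (1) over aPD-1. Its Foxp3 share, on which it was picked, was 69.4% in D+F+P, 68% in D+F, 60.5% in aPD-1 and 77.8% in control. The control side rests on 23 regulatory T-like cells, and NK-like cells of D+F+P had a median of 729 UMIs.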

Other observations

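Ligands of the 10 genes were also found outside the regulatory T-like, CD8 T-like and NK-like classes. Ccl8, a ligand of Ccr8, was 814 CPM in D+F+P, 1678 in D+F, 939 in aPD-1 and 527 in control myeloid cells. The 26 fibroblast-like cells of D+F+P had 1674 CPM of Ccl8, and the 45 of aPD-1 had 216. Ccl1, the other ligand of Ccr8, was concentrated in an unnamed sub-cluster of 34 D+F+P, 17 D+F, 18 aPD-1 and 4 control cells, whose leading genes include Ccl1, Ccr7, Tnfsf11, Tnfsf8, Cd83 and Csf2. It had 184 Ccl1 UMIs in D+F+P, 17 in D+F and 1 each in aPD-1 and control, which is 1312 CPM in D+F+P and 160 in D+F. That sub-cluster also carried Tnfrsf4, at 898 CPM in D+F+P, 717 in D+F and 512 in aPD-1, and Tnfrsf9, at 349 CPM in D+F+P, 877 in D+F and 400 in aPD-1. It held 3 Foxp3 UMIs in 2 cells. Part of it is also the conventional CD4 T-like class, namely its cells with a Cd4 UMI and no Cd8a or Cd8b1 UMI. These were 9 of the 29 cells of that class in D+F+P and 10 of the 12 in D+F.

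Tnfsf9, the ligand of 4-1BB, was 23.5 CPM in myeloid cells of D+F+P, 137 in D+F, 131 in aPD-1 and 134 in control. The 13 dendritic-like cells of control had 344 CPM of Tnfsf9. Tnfsf4, the ligand of OX40, was 20.03 CPM in D+F+P, 48.7 in D+F and 19.7 in aPD-1 CD8 T-like cells. Il2, the ligand of the receptor that Il2ra completes, had 0 UMIs in regulatory T-like, CD8 T-like and NK-like cells. Il10 in myeloid cells was lowest in D+F+P and highest in control. It was 8.55 CPM in D+F+P, 30.9 in D+F, 38.1 in aPD-1 and 66.8 in control, from 4 to 39 UMIs a library. In regulatory T-like cells D+F+P was highest and control, with 1 UMI, lowest. No difference in these values was tested.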
